A study of Caenorhabditis elegans with 4 samples.

Results

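Ion channels and transmitter receptors set how nerve and muscle cells respond to signals, and the nematode Caenorhabditis elegans has large families of them. The genes described here were the rows of the authors' deposited table named acr, lgc, glr, nmr, gar, twk, kvs, kqt, best, clh or del followed by a hyphen and digits. The table held 162 such genes among its 18638 features, of which 18468 were genes and the others repeat elements. Families were compared over the 96 genes with a mean normalized count of at least 10, a read count divided by a size factor for its library and averaged over the 4 libraries. The rule for the members used only gene names, although it was set with earlier results of these data known.

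The samples were poly(A) RNA of whole gravid adults, 2 libraries of N2, the standard laboratory wild type, and 2 of YY1449, a strain mutant for rde-3, which are biological replicates per the design text. The product of rde-3, a gene that also goes by mut-2, is a nucleotidyltransferase: it puts poly(UG) tails on RNAs, and RNA interference and transposon silencing depend on it. No allele is named in the labels. With 1 strain for each genotype, what rde-3 does and what else differs between N2 and YY1449 cannot be told apart. A positive log2 fold change, called the log2 ratio below, was read as mutant above wild type because the comparison names the mutant before the wild type.

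The families cover several kinds of membrane protein. The acr and lgc genes encode subunits of Cys-loop channels, in which acetylcholine, GABA, amines or other ligands open a pore, while glr and nmr genes encode glutamate receptor subunits and gar genes encode muscarinic acetylcholine receptors that act through G proteins. The twk, kvs and kqt genes encode potassium channels of the two-pore, voltage-gated and KCNQ types, which hold or restore the resting voltage. The best (bestrophin) and clh (ClC) genes encode chloride channels or transporters, and the del genes belong to the DEG/ENaC family of sodium channels.

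Among these genes 14 differed in RNA level between the rde-3 mutants and the wild type, and most of the 14 were lower in the mutants. By the authors' deposited table at an adjusted p of 0.05, 11 of the 96 genes were lower and 3 were higher, together 14.6%, against 25.9% of all 12436 features with a mean of at least 10. Counted over all 162 members the 14 stand against 17.5% of all features. By direction, 11.5% of the members were lower and 3.12% were higher, against 11.9% and 14% of those features in the authors' deposited table. An unadjusted p under 0.05 was held by 21 of the 96, against 37.5% of those features. These p-values rest on a normal distribution: with a t distribution of 2 degrees of freedom in its place 0 members passed, against 14 here. No gene of the marker lists described further on passed with it either, tnt-2 included (adjusted p = 1.0e-59 by the authors' deposited table). That setting thus cannot tell the members from strongly changed genes. By the deposited adjusted p the 3 higher genes were all ClC genes, and outside that family 0 members rose and 10 of 90 fell. A second test described further on, limma, also called acr-19, best-13, kqt-1 and lgc-22 higher. The median log2 ratio of the 96 members was -0.28 in the authors' deposited table, and that of all features was 0.00. Values below 0 were held by 68 of the 96 members, or 70.8%, against 49.8% of all features in the authors' deposited table. Because whole animals were used, fewer cells of a type and less RNA per cell cannot be told apart.

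**Figure D1:**
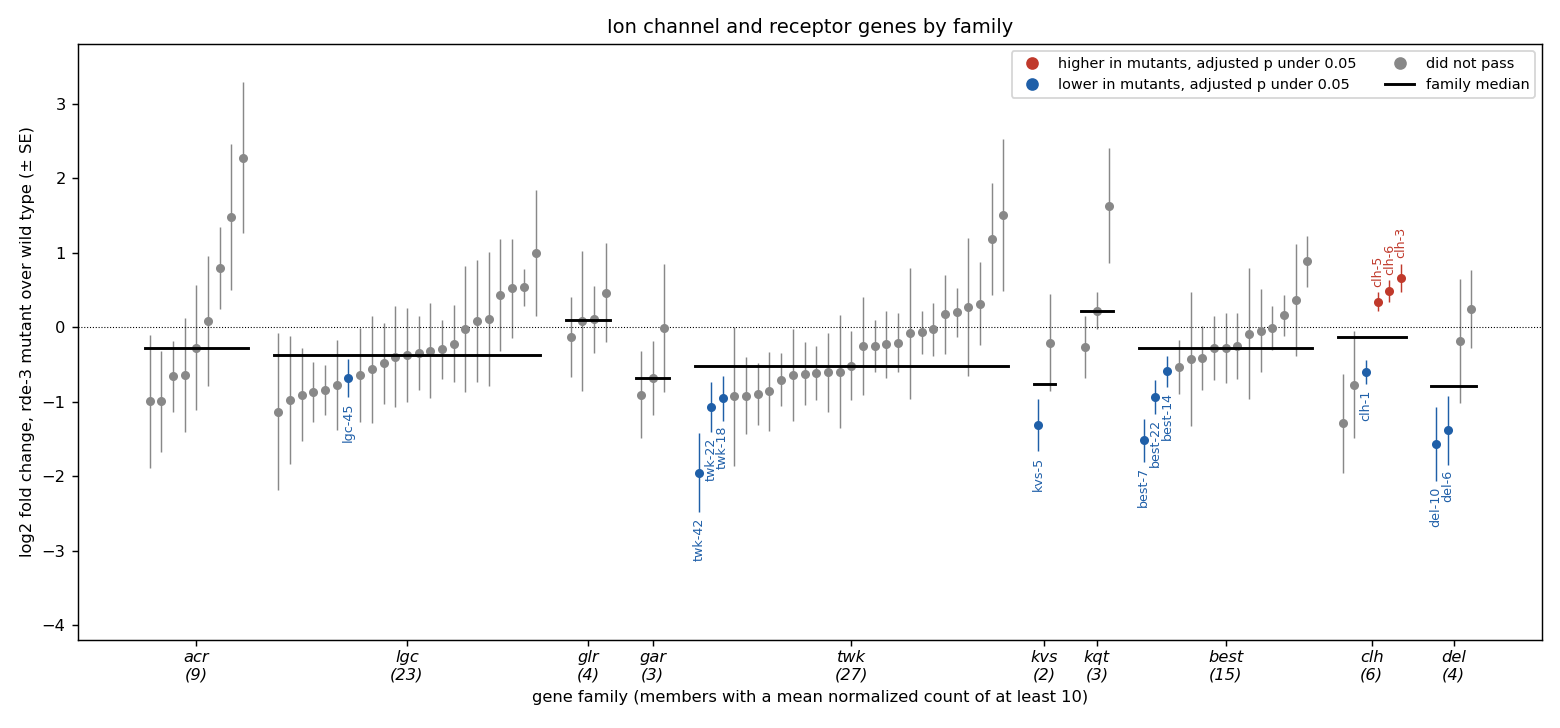
Each point is the authors' deposited log2 fold change (rde-3 mutant over wild type, vertical axis, with its SE) of a member with a mean normalized count of at least 10, arranged by family along the horizontal axis. Blue points passed as lower, red as higher and grey did not pass. The 3 red points are all in the clh family, and the 11 blue points lie in the lgc, twk, kvs, best, clh and del families.

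The channel and receptor genes were low in abundance, and the share that passed differed between ranges of abundance. Their median mean normalized count was 38.9 in the authors' deposited table, against 213.2 for all features with a mean of at least 10. Among the 77 members with a mean of 10 to 100, 3 passed, all lower, which is 3.90% against 12.7% of all features in that range in the authors' deposited table, where 7.07% were lower and 5.6% higher. Among the 19 with a mean of at least 100, 8 were lower and 3 were higher, which is 57.9% against 34.0% of all features at that level in the authors' deposited table, where 14.9% were lower and 19.1% higher. In the lower range 56.6% of all features had a log2 ratio below 0, against 74.03% of the members.

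**Figure D2:**
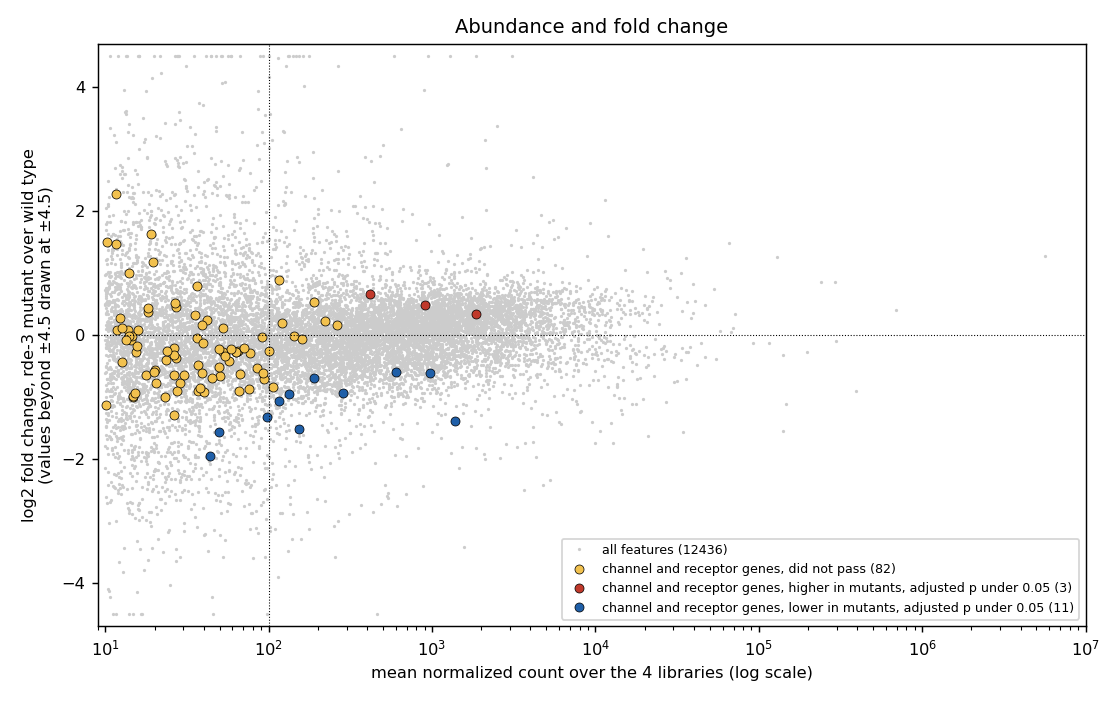
Mean normalized count over the 4 libraries (horizontal, log scale) against the authors' deposited log2 fold change (vertical) for all 12436 features with a mean of at least 10 in grey and for the 96 members in colour. The dotted vertical line stands at a mean of 100. To its right 11 of 19 members passed, and to its left 3 of 77.

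The deposited means also gave the reads of each library. They were whole-number combinations of 4 fixed steps, 1 per library, and the reads of all 162 members could be worked out. The size factors were 1.42 and 0.963 for the libraries read as wild type and 1.06 and 0.707 for those read as mutant, and within each group they are called the larger and the smaller library. They are not tied to a replicate number. Reads in the 17746 features worked out numbered 4130217 to 7899463 per library, of which 7865 to 18719 fell in the members. The mutated gene mut-2 had normalized counts of 726 and 805 in the wild-type libraries and 846 and 745 in the mutant libraries (larger, then smaller, here and throughout). Its groups overlapped, with a log2 ratio of 0.06 ± 0.16 (SE; adjusted p = 0.905) by the authors' deposited table, so its RNA level does not check the labels.

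In 56 of the 96 members the 2 libraries of one group both lay above the 2 of the other. The mutant libraries were both lower in 41 members, or 42.7%, against 34.8% of the 11602 features worked out at this level. They were both higher in 15 members, or 15.6%, against 33.3% of those features, and the groups overlapped in the other 40 members. All 14 genes that passed were among the 56.

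**Figure D3:**
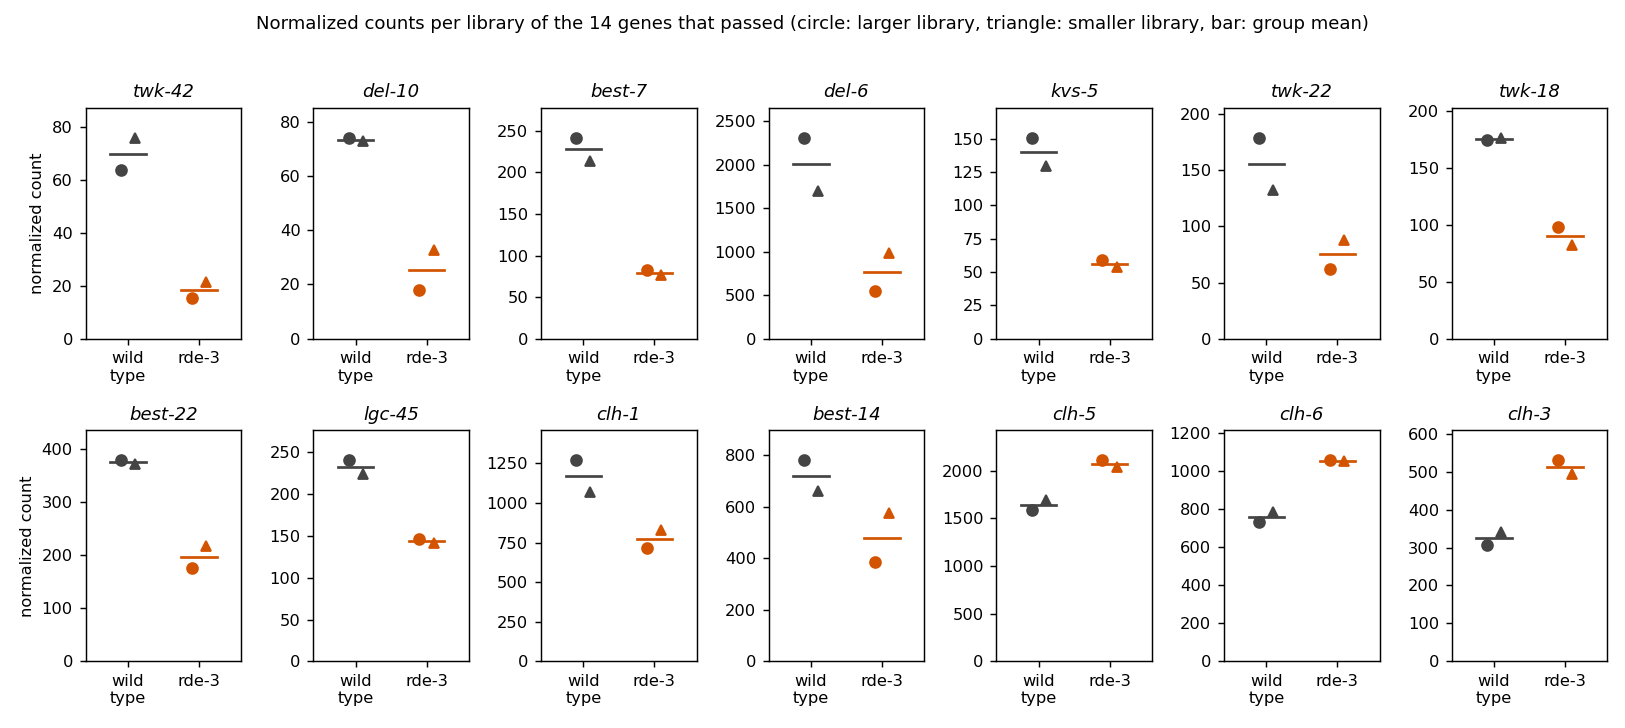
Normalized counts (vertical axes, from 0, a separate scale for each gene) of the 14 genes that passed, in the wild-type and rde-3 mutant libraries. Circles mark the larger and triangles the smaller library of each group, and bars mark group means. In every panel both mutant libraries lie on the same side of both wild-type libraries.

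The Cys-loop receptor subunits, the largest group of ligand-gated channels among the members, held 1 gene that passed out of 32 with a mean of at least 10. Of all features at this level 25.9% passed, and of those with a mean of 10 to 100, 12.7%. The median mean of the 32 genes was 24.9. The gene that passed was lgc-45 (WBGene00021146, chromosome II, 3557472 to 3567579, build WBcel235 as for all positions here). Its normalized counts were 240.4 and 224 in the wild-type libraries and 147 and 141 in the mutant libraries. The groups did not overlap, and the gene fell 1.61-fold (log2 -0.69 ± 0.26, adjusted p = 0.0420) by the authors' deposited table.

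The other 22 lgc genes at this level did not pass. Their family had a median log2 ratio of -0.37 in the authors' deposited table, with 17 of 23 members below 0. The most abundant after lgc-45 was lgc-22, with normalized counts of 148 and 160 (wild type) and 225 and 219 (mutants). Both mutant libraries were higher, but its log2 ratio of 0.53 ± 0.25 did not pass (adjusted p = 0.149) by the authors' deposited table. The largest value above 0 among the 23 was that of lgc-55, a tyramine-gated chloride channel, with normalized counts of 8.46 and 10.4 against 18.9 and 18.4. Its log2 ratio was 0.99 ± 0.85 (adjusted p = 0.571) by the authors' deposited table. The largest value below 0 among the 23 was that of lgc-10, at -1.13 ± 1.05 (adjusted p = 0.622) by the authors' deposited table, from 13.4 and 14.5 against 9.47 and 2.83 normalized counts. Members with a known ligand did not pass either. The GABA-gated cation channel lgc-35 had a log2 ratio of 0.43 ± 0.75, and the serotonin-gated channel lgc-50 one of -0.32 ± 0.64, in the authors' deposited table (adjusted p = 0.848 and 0.876).

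Of the acr genes, the nicotinic type of acetylcholine receptor subunit, 9 of 20 had a mean of at least 10 and 0 of these passed in the authors' deposited table, with 1 at an unadjusted p under 0.05. The highest mean among them was 50.5, and of all features with a mean of 10 to 100, 12.7% passed there. The family's median log2 ratio was -0.28, with 5 of the 9 below 0, and it was 0.16 without the smaller mutant library. The most abundant was acr-16, which forms the levamisole-insensitive nicotinic receptor of body wall muscle (WBGene00000055, chromosome V, 8561216 to 8564345). It had normalized counts of 69.1 and 55.0 in the wild-type libraries and 45.5 and 32.5 in the mutant libraries. The groups did not overlap, but the log2 ratio of -0.66 ± 0.47 did not pass (adjusted p = 0.441, 95% interval -1.59 to 0.26) by the authors' deposited table. Its neighbour acr-15, 5832 bases away, had a log2 ratio of -0.996 ± 0.68 (adjusted p = 0.408) by the authors' deposited table. An exon of acr-16 overlaps one of F25G6.8 on the opposite strand by 43 bases, and the libraries do not mark the strand. In the authors' deposited table F25G6.8 had a mean of 425 and a log2 ratio of -0.68.

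The largest value above 0 among the 96 members was that of acr-19 (WBGene00000058, chromosome I, 9031235 to 9036695). Normalized counts were 2.82 and 5.19 in the wild-type libraries and 14.2 and 24.0 in the mutant libraries. The groups did not overlap, and the log2 ratio was 2.28 ± 1.01 (adjusted p = 0.111, 95% interval 0.30 to 4.26) by the authors' deposited table. The largest value below 0 among the 9 was that of acr-8, at -0.999 ± 0.89 (adjusted p = 0.596) by the authors' deposited table, from 22.6 and 16.6 against 4.73 and 15.6 normalized counts. The motor neuron receptor subunits acr-2 and acr-12 had ratios of 1.48 ± 0.97 and 0.79 ± 0.55 in the authors' deposited table, and neither passed (adjusted p = 0.383 and 0.423).

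The glutamate receptor subunits had small values with wide errors. Of the 7 glr genes, 4 had a mean of at least 10, their log2 ratios ran from -0.13 to 0.46 in the authors' deposited table, and the groups overlapped in each of the 4. Of these 0 passed, also by unadjusted p and by limma, a second test described further on. Among all features with a mean of 10 to 100, the range of these 4 genes, 12.7% passed in the authors' deposited table. The most abundant was glr-6, with normalized counts of 49.4 and 51.9 (wild type) and 57.8 and 50.9 (mutants) and a log2 ratio of 0.11 ± 0.45 (adjusted p = 0.936) by the authors' deposited table. The extremes among the 4 were glr-5, at 0.46 ± 0.67 (adjusted p = 0.802), and glr-4, at -0.13 ± 0.53 (adjusted p = 0.933), in the authors' deposited table. The interval of glr-6, -0.77 to 0.99, shows the size of change that these data could not resolve. The AMPA-type subunit gene glr-1 had a mean of 9.17 and the NMDA-type subunit gene nmr-1 one of 6.32, both under the minimum.

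The 3 muscarinic receptor genes gar-1, gar-2 and gar-3 all had log2 ratios below 0, and 0 passed in the authors' deposited table, by unadjusted p or by limma. Among all features with a mean of 10 to 100, the range of these 3 genes, 12.7% passed in the authors' deposited table. The receptor gene gar-2 had normalized counts of 59.9 and 51.9 in the wild-type libraries and 40.7 and 28.3 in the mutant libraries, without overlap. Its log2 ratio was -0.69 ± 0.50 (adjusted p = 0.452) by the authors' deposited table. For gar-3, which acts in pharyngeal muscle among other cells, the counts were 43.7 and 51.9 against 15.2 and 36.8. The groups did not overlap, and the log2 ratio was -0.91 ± 0.58 (adjusted p = 0.362) by the authors' deposited table.

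Among the potassium channel genes 4 of 32 fell, against 11.9% of all features with a mean of at least 10, and 0 rose, against 14%, in the authors' deposited table. The share that fell was thus near that of all features, and the 4 were 3 of the two-pore type and 1 of the voltage-gated type. The largest fall among the members that passed was that of the two-pore channel gene twk-42 (WBGene00006692, chromosome V, 17726791 to 17732616). Its normalized counts were 63.5 and 75.8 in the wild-type libraries and 15.2 and 21.2 in the mutant libraries. Every mutant value was well under every wild-type value, and the gene fell 3.87-fold (log2 -1.95 ± 0.53, adjusted p = 0.00254) by the authors' deposited table. A second twk gene, twk-33, lies 12413 bases from it and had a log2 ratio of -0.25 in the authors' deposited table, which did not pass.

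Body wall muscle has a two-pore channel of its own, encoded by twk-18 (WBGene00006672, chromosome X, 8988128 to 8991975), and gain-of-function alleles of this gene paralyse the animal. Normalized counts were 175 and 176 in the wild-type libraries and 98.5 and 82.0 in the mutant libraries. The wild-type libraries were almost equal and the groups did not overlap. The gene fell 1.94-fold (log2 -0.95 ± 0.30, adjusted p = 0.0124) by the authors' deposited table. There 17 of 23 markers of body wall and pharyngeal muscle also fell, against 11.9% of all features with a mean of at least 10. Whether the fall of twk-18 is linked to theirs was not tested. The third was twk-22 (WBGene00006675, chromosome X, 16306464 to 16314998), with 179 and 133 normalized counts in the wild-type libraries and 62.5 and 87.7 in the mutant libraries. The spread within each group was wider here, but the groups were apart, and the gene fell 2.10-fold (log2 -1.07 ± 0.34, adjusted p = 0.0134) by the authors' deposited table.

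Over the 27 twk genes at or above the minimum, the median log2 ratio was -0.52 in the authors' deposited table, and 21 were below 0. Without the larger wild-type library the median was -0.12. Both mutant libraries were lower in 12 of the 27, or 44.4%, against 34.8% of the features worked out, and higher in 2, or 7.41%, against 33.3%. The most abundant, twk-1, had normalized counts of 173 and 155 against 135 and 178, which overlap, with a log2 ratio of -0.07 ± 0.28 (adjusted p = 0.930) by the authors' deposited table. The highest value among the 27 was that of twk-9, at 1.502 ± 1.02 (adjusted p = 0.404) by the authors' deposited table, from 6.35 and 4.15 against 13.3 and 16.97 normalized counts.

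Of the voltage-gated kvs genes, 2 of 4 had a mean of at least 10. The first, kvs-5 (WBGene00021948, chromosome IV, 736747 to 753316), had normalized counts of 151 and 129.8 in the wild-type libraries and 58.7 and 53.7 in the mutant libraries. The libraries of each group were close together and the groups far apart, and the gene fell 2.49-fold (log2 -1.32 ± 0.35, adjusted p = 0.00191) by the authors' deposited table. The other, kvs-1, had overlapping groups and a log2 ratio of -0.21 ± 0.65 (adjusted p = 0.913) by the authors' deposited table.

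The 3 KCNQ genes did not pass, and 1 of them had an unadjusted p under 0.05. The intestinal channel gene kqt-2 was the most abundant, with normalized counts of 213 and 196 against 213 and 266 and a log2 ratio of 0.22 ± 0.25 (adjusted p = 0.709) by the authors' deposited table. Its relative kqt-3 had 66.3 and 71.6 against 61.6 and 52.3, with a log2 ratio of -0.27 ± 0.42 (adjusted p = 0.821) by the authors' deposited table. The pharyngeal muscle channel gene kqt-1 had normalized counts of 11.99 and 6.23 against 26.5 and 31.1, with a log2 ratio of 1.63 ± 0.77 (adjusted p = 0.142) by the authors' deposited table. An exon of kqt-1 overlaps one of clec-266 on the opposite strand by 193 bases, and clec-266 had a log2 ratio of 2.84 in the authors' deposited table. The library kit kept no record of the strand, so reads of such pairs cannot be told apart.

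Bestrophin genes that changed were all lower, 3 of the 15 with a mean of at least 10 in the authors' deposited table, against 11.9% of all features lower and 14% higher. Log2 ratios below 0 were held by 12 of the 15, against 49.8% of all features. The smallest adjusted p of all the members was that of best-7 (WBGene00007808, chromosome IV, 11226502 to 11230307). Its normalized counts were 242 and 214 in the wild-type libraries and 82.4 and 76.4 in the mutant libraries. The groups were far apart beside the spread within them, and the gene fell 2.87-fold (log2 -1.52 ± 0.29, adjusted p = 3.84e-06) by the authors' deposited table.

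The second bestrophin gene was best-22 (WBGene00013921, chromosome IV, 12349939 to 12355724), with 379 and 373 normalized counts in the wild-type libraries and 176 and 218 in the mutant libraries. The groups did not overlap, and it fell 1.92-fold (log2 -0.94 ± 0.22, adjusted p = 0.000415) by the authors' deposited table. It shares 125 bases of exon with sec-24.2 on the opposite strand, whose mean of 2724 was far higher and whose log2 ratio was 0.26, both in the authors' deposited table. The third was best-14 (WBGene00009340, chromosome V, 10557976 to 10560788), with normalized counts of 780 and 662 against 384 and 576. The smaller mutant library came closest to the wild-type range, and the gene fell 1.51-fold (log2 -0.60 ± 0.21, adjusted p = 0.0263) by the authors' deposited table. A correction for the trend of log2 with transcript length ended this call (adjusted p = 0.0605). The highest value among the 15 was that of best-13, with normalized counts of 92.4 and 69.6 against 119.3 and 182, and it did not pass (log2 0.88 ± 0.34, adjusted p = 0.0572) by the authors' deposited table.

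The ClC family had the highest median mean normalized count of the 11 families, 663, and was the only one with genes that rose in the authors' deposited table. All 6 of its members had a mean of at least 10, and 3 rose and 1 fell. Of all features with such a mean 14% rose and 11.9% fell there. Of those with a mean of at least 100, 19.1% rose and 14.9% fell. The largest rise was that of clh-3 (WBGene00000530, chromosome II, 7217943 to 7225914), a channel of oocytes and of the egg-laying HSN neurons. Normalized counts were 307 and 341 in the wild-type libraries and 529 and 494 in the mutant libraries. Both mutant libraries were higher, and the gene rose 1.58-fold (log2 0.66 ± 0.19, adjusted p = 0.00482) by the authors' deposited table. There 11 of 13 oocyte and eggshell markers also rose, against 14% of all features with a mean of at least 10. Whether the rise of clh-3 is linked to theirs was not tested.

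The lysosomal ClC gene clh-6 (WBGene00000533, chromosome V, 12060234 to 12063368) had 732 and 785 normalized counts in the wild-type libraries and 1057 and 1056 in the mutant libraries. The mutant libraries were nearly equal and both higher, and the gene rose 1.39-fold (log2 0.48 ± 0.15, adjusted p = 0.0105) by the authors' deposited table. The most abundant member of all was clh-5 (WBGene00000532, chromosome II, 9094710 to 9098605), which is related to the mammalian ClCs of intracellular membranes. Its normalized counts of 1587 and 1689 against 2108 and 2044 did not overlap, and it rose 1.27-fold (log2 0.34 ± 0.13, adjusted p = 0.0448) by the authors' deposited table.

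The one ClC gene that fell was clh-1 (WBGene00000528, chromosome II, 11846507 to 11856461), which acts in hypodermis and glia and whose loss widens the body. Its normalized counts were 1268 and 1070.4 in the wild-type libraries and 713 and 827 in the mutant libraries. The groups did not overlap, and it fell 1.52-fold (log2 -0.61 ± 0.16, adjusted p = 0.00198) by the authors' deposited table. The genes clh-2 and clh-4 were far less abundant and did not pass, with log2 ratios of -1.29 ± 0.66 (adjusted p = 0.193) and -0.77 ± 0.72 (adjusted p = 0.619) by the authors' deposited table. Both mutant libraries were lower for each of them. A correction for transcript length left log2 ratios of 0.43 for clh-3, 0.32 for clh-6 and 0.18 for clh-5, of which 0 passed (adjusted p = 0.122, 0.147 and 0.455). Centring on abundant genes, a shift of 0.05, ended the call of clh-5 alone among the 14 (adjusted p = 0.112).

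In the DEG/ENaC family 2 of the 4 del genes with a mean of at least 10 fell and 0 rose in the authors' deposited table. Of all features with such a mean 11.9% fell and 14% rose there. The fall of largest absolute size among the members was that of del-6 (WBGene00011891, chromosome V, 10572914 to 10575454). Normalized counts were 2309 and 1693 in the wild-type libraries and 550.2 and 981 in the mutant libraries. The libraries of each group spread widely, but the groups did not overlap. The gene fell 2.62-fold (log2 -1.39 ± 0.46, adjusted p = 0.0190) by the authors' deposited table. Leaving out each library in turn gave log2 ratios from -1.86 to -1.03. The gene del-6 lies 12125 bases beyond the end of best-14, which also fell.

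The second, del-10 (WBGene00020897, chromosome II, 6474338 to 6482125), had 74.03 and 72.7 normalized counts in the wild-type libraries and 17.99 and 32.5 in the mutant libraries. The wild-type libraries were almost equal, the groups did not overlap, and the gene fell 2.96-fold (log2 -1.57 ± 0.50, adjusted p = 0.0138) by the authors' deposited table. For del-5 the groups overlapped, with 37.4 and 39.5 against 32.2 and 59.4 and a log2 ratio of 0.24 ± 0.52 (adjusted p = 0.879) by the authors' deposited table. The motor neuron subunit gene del-1 had overlapping groups and a log2 ratio of -0.18 ± 0.84 (adjusted p = 0.941) by the authors' deposited table.

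Divided by exon length, the order of the levels was led by the genes that passed. The mean normalized count per kilobase of exon was 691 for clh-5, 607 for del-6, 429 for best-14, 341 for clh-6, 290.5 for clh-1 and 148 for best-22. The next were lgc-22, at 128, and best-24, at 123, which did not pass, and clh-3, at 106. The median over the 96 members was 17.3 per kilobase, against 176 for all features with a mean of at least 10.

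The 66 members with a mean under 10 had 2 to 43 reads over the 4 libraries, with a median of 16. Of these, 0 passed in the authors' deposited table and 0 had an unadjusted p under 0.05. Few features of any kind did at this level: of all 6202 with a mean under 10, 36 passed and 182 had an unadjusted p under 0.05. The reads of the mutant libraries were 0 for acr-14, best-6, lgc-5, lgc-23, lgc-24 and twk-44, which had 2 to 5 wild-type reads, near the floor of 3 reads. The members just inside the minimum were lgc-10, twk-9 and acr-2, with means of 10.1, 10.2 and 11.5 in the authors' deposited table. Just outside it were del-9, acr-17 and kvs-4, with means of 9.84, 9.70 and 9.63 there.

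Replicates of the members, which are less abundant than most features, spread more than those of the features worked out. The median fold between the wild-type libraries was 1.20 over the 96 members and 1.13 over the 11602 features worked out, and between the mutant libraries it was 1.36 and 1.18. The smaller mutant library was the higher of its group in 63 of the 96 members, or 65.6%, against 43.9% of those features. The larger wild-type library was the higher in 59, or 61.5%, against 44.9%. Values of the smaller mutant library lay between those of the larger mutant library and the wild type in genes such as best-14, clh-1 and del-6.

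A second test of the normalized counts per library, limma on log2(count + 0.5) over features with a mean of at least 10, called 17 members lower and 7 higher at an adjusted p of 0.05. It called 18% and 16.7% of all the features it tested in those directions, and its 24 members included the 14 of the authors' deposited table. The 10 it added were acr-19, best-13, kqt-1 and lgc-22, all higher, and clh-2, lgc-34, lgc-54, twk-16, twk-24 and twk-26, all lower. Without the larger wild-type library it kept 5 of the 14 genes, which were best-7, best-22, del-6, kvs-5 and twk-42. Without the smaller wild-type library it kept 10, losing clh-5, clh-6, lgc-45 and twk-18. It kept 12 without the larger mutant library, losing best-14 and clh-5, and 13 without the smaller, losing clh-5. The same test over all 17746 features worked out called 12 of the 96 members with a mean of at least 10 lower and 5 higher. Of its 17, 12 were among the 14. It called 9.34% and 8.44% of all 17746 features in those directions. These shares include features with a mean under 10, so they are not a like base for the 96. In the fits without a library the lone library of a group was taken to vary like the others. The share of all features called in those fits was not counted, so the losses are not particular to the members.

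Genes of excitability outside these families were counted in the same way. A list of 124 such genes, from levamisole receptor subunits to calcium, cyclic nucleotide-gated and TRP channels, had 88 with a mean of at least 10, of which 2 fell and 1 rose in the authors' deposited table, against 25.9% of all features called in either direction. limma called 9 lower and 3 higher among 87 of them, against 18% and 16.7% of the features it tested. The median log2 ratio over the 88 was -0.15, with 54 of 88 below 0. The levamisole receptor subunit gene lev-1 had normalized counts of 55.7 and 55.0 in the wild-type libraries and 17.99 and 18.4 in the mutant libraries. The groups were far apart and the gene fell, with a log2 ratio of -1.61 ± 0.56 (adjusted p = 0.0255) by the authors' deposited table. The other subunits of that receptor did not pass: unc-29, unc-38, unc-63 and lev-8 had log2 ratios of -0.73, 0.21, -0.36 and 0.21 in the authors' deposited table.

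The glutamate-gated chloride channel gene glc-2 had normalized counts of 126 and 141 against 67.2 and 66.5, without overlap, and fell (log2 -0.998 ± 0.34, adjusted p = 0.0229) by the authors' deposited table. The gene that rose was acd-1, a DEG/ENaC channel of amphid sheath glia, with normalized counts of 3.53 and 1.04 against 9.47 and 32.5. Its mutant libraries differed widely, and its log2 ratio was 3.11 ± 1.136 (adjusted p = 0.0378) by the authors' deposited table. Of the 11 calcium and sodium leak channel genes and the 21 other potassium channel and helper genes with a mean of at least 10, 0 passed there, although 2 and 1 of them had an unadjusted p under 0.05 and limma called 2 of each.

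**Figure D4:**
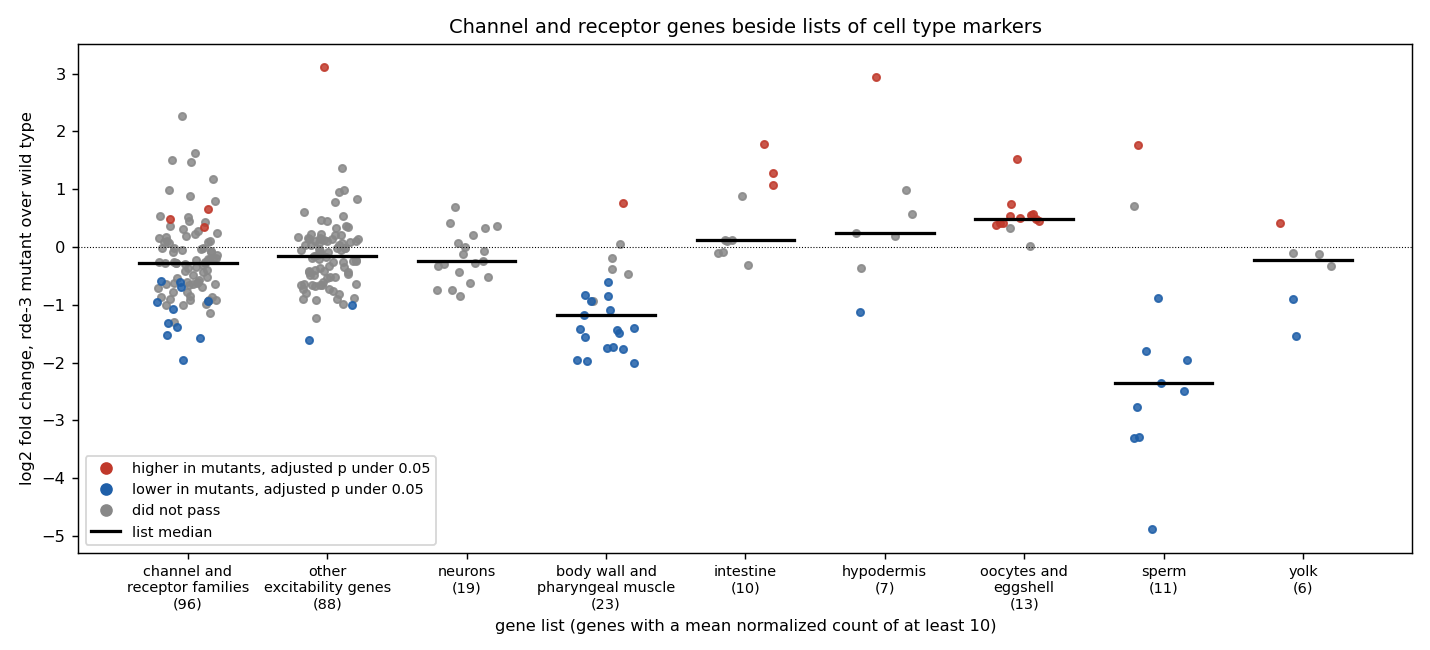
Authors' deposited log2 fold change (vertical) of genes with a mean of at least 10 in the channel and receptor families, in other genes of excitability and in 7 lists of cell type markers (horizontal), with black bars for list medians. The muscle median lies at -1.18 and the neuron median at -0.24, beside -0.28 for the channel and receptor families.

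Markers of cell types moved between the groups beside these genes. All list counts below stand beside 11.9% lower and 14% higher among all features with a mean of at least 10 in the deposited table. Of 19 neuron markers with a mean of at least 10, 0 passed in the authors' deposited table, with a median log2 ratio of -0.24, and the smallest adjusted p values were those of unc-33 (0.0644) and snb-1 (0.0712). An unadjusted p under 0.05 was held by 6 of the 19, and limma called 4 higher and 3 lower. Their normalized counts summed to 6230.2 and 6058 in the wild-type libraries and 6398 and 6430.4 in the mutant libraries. Abundant genes weigh most in these sums. The most abundant of the list, unc-18 and snb-1, had log2 ratios of 0.34 and 0.36, whereas the list median was below 0. Of 23 markers of body wall and pharyngeal muscle 17 fell and 1, pat-3, rose in the authors' deposited table, with a median of -1.18. The 5 that did not pass were tnc-2, tnt-3, unc-60 and the pharyngeal myosin genes myo-1 and myo-2. The log2 ratios of myo-1 and myo-2 were -0.18 and -0.46. The lowest adjusted p values in that list were those of tnt-2 and dim-1, which had log2 ratios of -1.96 and -2.004 in the authors' deposited table. The sum over the 11 muscle markers worked out was 12630.3 and 12539 in the wild-type libraries and 8618 and 8464 in the mutant libraries, apart from those of the wild type. It leaves out abundant markers such as unc-54, whose reads were not worked out. Group sums over all 23, estimated from the deposited means and log2 ratios, were 104517 (wild type) and 46034 (mutants), a larger fall.

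Germline markers also differed. Of 13 oocyte and eggshell genes 11 rose and 0 fell in the authors' deposited table, with a median log2 ratio of 0.49, led by cav-1 and cpg-2. The reads of 2 of the 13 were worked out, and their sums were 2791 and 3272 (wild type) and 4581 and 4359 (mutants). Of 11 sperm genes 9 fell, led by sss-1 and nspd-1, and 1, spe-41, rose in the authors' deposited table. Their sums were 1454 and 1225 in the wild-type libraries and 771 and 526 in the mutant libraries. Among the remaining lists 3 of 10 intestinal markers rose in the authors' deposited table, with cpr-1 and pgp-1 the leading ones. In the hypodermis list dpy-7 rose and col-19 fell, out of 7 genes with a mean of at least 10. In the yolk list vit-1 and vit-2 fell and vit-6 rose, out of 6 genes. The genes pat-3, spe-41 and vit-6 are named here because they were the single exceptions of their lists. The sperm gene spe-42, at a mean of 1.66, was the only marker with 0 reads worked out in a group, the mutants. The part of such shifts in the values of the channel and receptor genes was not tested.

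The genes that passed lay on chromosomes II, IV, V and X. By chromosome, 3 fell on II, 3 on IV, 3 on V and 2 on X, and 2 rose on II and 1 on V, with 0 on I and III. Members with a mean of at least 10 numbered 6 on I, 17 on II, 12 on III, 16 on IV and 22 on V. The share of all features that passed on each chromosome was not counted. Chromosome X held 38 of the 162 members and 23 of the 96, and 0 of the 25 bestrophin genes. The X-linked genes twk-26 and twk-16, which lie 26300 bases apart, had log2 ratios of -0.90 and -0.92 in the authors' deposited table and did not pass. Exons of twk-22, twk-42, best-7 and del-6 overlap those of a protein-coding gene on the opposite strand by 77, 28, 15 and 10 bases. An exon of lgc-54, which limma alone called lower, overlaps one of T15B7.1 on the opposite strand by 148 bases. In the authors' deposited table T15B7.1 had a mean of 823 and a log2 ratio of -1.82.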

How the data were processed

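Per the labels' protocols, the RNA of whole animals was taken up in TRIzol, selected for poly(A) on beads and made into Nextera XT libraries, which do not mark the strand. The tools named in the submitters' processing notes are STAR 2.7.0a, SAMtools 1.3.1, cutadapt 1.14 and Trim Galore 0.4.4, with the builds ce11 and WBcel235. How reads were counted and modelled is not given in the sources used here. Of 2 tables deposited by the authors, the smaller repeats the 3254 features of the larger whose adjusted p lies under 0.05.

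The columns, per the file headers, are a mean signal (counts divided by size factors), a log2 fold change, its standard error, a Wald score and p-values. The deposited p-value equalled the normal p of the score, and its adjustment was Benjamini-Hochberg over all 18638 features (largest gap 2.72e-15). These p-values rest on 2 libraries per group, and how the errors were estimated is not known.

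Reads per library were worked out as the whole-number combination of 4 steps that gives the deposited mean. A combination was accepted only where it was the sole one and, if testable, matched the deposited log2 fold change. Features with a mean under 3 were also kept without that match where only 1 combination gave the mean. This gave 17746 features, with 892 left without a combination. A step was tied to a group by the sign of the fold change of features with reads in 1 library. Of the members, 153 were checked by fold change, with a largest gap of 2.08e-05 in log2. Intervals of 95% are the deposited log2 value with its normal error, and floors cover counting error only.

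The calls in the text are the deposited adjusted p at 0.05. limma 3.58.1 (R 4.3.3, trend option) was run on log2(normalized count + 0.5), and tested on simulated data, as were the worked-out reads. Python 3.11.15, numpy 2.4.6, pandas 2.3.3 and scipy 1.17.1 were used. Positions and exon lengths are those of Ensembl release 115, matched for 18026 features.

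The members and the gene lists were chosen with earlier results of these data known. Genes are named where they passed, or were the most abundant, or had the largest value in either direction in their family at a mean of at least 10. Of the other excitability genes those that passed are named, and of each marker list the 2 of smallest adjusted p. Genes of known role, neighbours, the added limma calls and the genes with 0 mutant reads were named after their values were seen. Alternatives were other minimum means, recentring, removal of a transcript length trend, a t distribution, other adjustments, limma and the omission of each library.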

Additional observations from a re-analysis of the deposited data

How the results depend on the processing

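The 14 calls kept their direction under every alternative run. With the t distribution of 2 degrees of freedom in place of the normal 0 members passed in either direction, and 0 of the other excitability genes and of each marker list. The share of all features that pass with it was not counted, so this result is not particular to the members. At an adjusted p threshold of 0.01, 1 member was higher and 5 were lower. With the transcript length trend removed 0 were higher, and 10 of the 14 calls were shared. Adjustment over features with a mean of at least 10 added best-13 and lgc-34. For that threshold, the trend removal, recentring and this adjustment the share of all features called was not counted either. limma over all 17746 features worked out called 5 members higher, and 0 in either direction when any library was left out; over features with a mean of at least 10, an alternative added after seeing the data as were the bands of mean, it called 7 higher and 17 lower, and without each library 2 to 10 higher and 5 to 24 lower (18 without the larger mutant library). The band of means from 10 to 100 held 0 higher and 3 lower. Of the other excitability genes 4 were lower after recentring, 6 with the length trend removed and 4 with adjustment over features with a mean of at least 10, and 0 were higher with the length trend removed. Of the marker lists, neurons had 1 higher and 1 lower with the length trend removed and 2 higher with that adjustment, muscle had 2 higher with the length trend removed, and the yolk list had 0 higher with the length trend removed or after recentring.

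Family medians rest on few genes. The acr median was -0.66 at a minimum mean of 20 or of 50, and ran from -0.42 to 0.16 over the omissions of a library. The lgc median was -0.52 at a minimum of 50 and -0.22 with no minimum and genes without reads in a group at their bound, and -0.58 to -0.22 over the omissions. The corresponding ranges were -0.19 to 0.24 for glr, -0.74 to -0.37 for gar, -0.46 to -0.12 for twk and 0.059 to 0.38 for kqt. The twk median was -0.26 at the bound, the kqt median -0.024 at a minimum of 20 or 50, and the kvs median -0.32 with no minimum, -0.43 at 5 and -1.32 at 50. The clh median was -0.19 after recentring, -0.31 with the length trend removed and 0.41 at a minimum of 50, and the del median was -1.39 at 20 or 50.

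Of the genes named by the rule, 5 that did not pass turned in sign under some alternative, and by limma gar-1 and best-23, outside the rule, were at 0.084 and 0.060. Over the omissions of a library del-5 ran from -0.25 to 0.62, glr-5 from -0.25 to 0.94, glr-4 from -0.48 to 0.18 and twk-1 from -0.27 to 0.12. The turned values were those of del-5 and glr-5 without the smaller mutant library and of glr-4 and twk-1 without the larger library of either group (0.064 and 0.020 for the wild type). With the length trend removed glr-6 was at -0.092. The cause of these changes was not tested. No paired analysis was possible because the values worked out carry no replicate number. Depth is low for these families: the median member with a mean of at least 10 had 163.5 reads over the 4 libraries.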
